A study of Mus musculus with 6 samples.

Results

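The cytosolic ribosomal protein genes encode the proteins of the small (40S) and large (60S) subunits of the ribosome that translates messages outside mitochondria. They were taken as every gene with a probe set that carries 1 gene symbol of the form Rps or Rpl and a number, together with Rplp0, Rplp1, Rplp2 and Rpsa. Symbols of pseudogenes were left out. The rule gave 70 of the 17097 genes on the array, 25 of the small and 45 of the large subunit, measured by 133 probe sets. The brightest probe set, by its mean across all 6 arrays, stood for each gene, and 69 of the 70 entered the test. Rpl3l, a copy of Rpl3 known from striated muscle, was left out as dim, with readings of 2.30, 2.31 and 2.28 in wild type and 2.54, 2.17 and 2.30 in the knockout.

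The livers came from wild-type mice and from mice with a knockout of Nrg4, the gene of the secreted factor neuregulin 4, both labelled C57BL/6. From 3 months of age both genotypes ate high-fat food, for 8 weeks in all, and their livers were taken in the random-fed state. Each genotype had 3 Affymetrix arrays, each of 1 RNA pool. The sources used here do not give the number of mice in a pool, their sex, the way the knockout was made or the tissue in which Nrg4 was lost, so p-values measure the spread between pools. Values are log2 signals after robust multi-array averaging (RMA), so a difference of 1 is a 2-fold change.

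A ribosome holds 1 copy of most of these proteins, and their production is matched to that of the ribosomal RNA (rRNA) that the proteins bind. Their messages typically begin with a C followed by a run of pyrimidines, the 5' terminal oligopyrimidine (TOP) tract, through which the kinase mTORC1 sets how much of each message is translated. Part of the control of these genes is therefore exerted on translation, which an array of RNA levels does not read. In hepatocytes ribosomes also carry the load of plasma protein synthesis.

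The labels and tissue were checked first. The Nrg4 probe set read 4.94, 4.79 and 4.77 in wild type and 2.56, 2.43 and 2.64 in the knockout, with no overlap (fitted log2 change -2.30, limma adjusted p = 4.76e-05). All 3 knockout readings lie under the dim limit of 2.66, so this is no exact size of the fall, and the sources used here do not give the place of the probe set relative to the deleted sequence. The arrays had medians of 2.98 to 3.04, and their number limits the precision. Of the hepatocyte markers 13 of 14 measured were above the dim limit, with mean levels of 11.19 to 11.24 in wild type and 11.20 to 11.28 in the knockout. In bulk RNA, fewer cells of a type and less RNA per cell cannot be told apart.

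The sequences around the annotated starts show where a pyrimidine run of the TOP kind is and is not found, for members among those with the smallest p in each direction. Each runs 5' to 3' on the gene's strand from 40 bases before the start to 15 bases in, and comes from RefSeq's promoter table for GRCm38.p6, which had an entry for 56 of the 70 genes. Capitals mark the longest run that begins with C within 10 bases of the start and goes on with at least 4 further bases that are each C or T.
Rpl22l1 (chr3:28805468-28805522, plus strand): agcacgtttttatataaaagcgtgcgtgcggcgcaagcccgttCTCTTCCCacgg
Rpl36a (chrX:134585614-134585668, plus strand): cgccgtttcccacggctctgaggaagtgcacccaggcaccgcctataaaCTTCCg
Rpl37 (chr15:5116573-5116627, plus strand): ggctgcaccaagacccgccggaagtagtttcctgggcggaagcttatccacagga
Rps6 (chr4:86857353-86857407, minus strand): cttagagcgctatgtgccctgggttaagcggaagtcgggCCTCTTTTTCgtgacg
Rps10 (chr17:27635230-27635284, minus strand): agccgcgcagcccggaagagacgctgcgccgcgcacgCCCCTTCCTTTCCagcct
Rps21 (chr2:180257339-180257393, plus strand): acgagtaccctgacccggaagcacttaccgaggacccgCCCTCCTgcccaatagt
Rps28 (chr17:33824548-33824602, minus strand): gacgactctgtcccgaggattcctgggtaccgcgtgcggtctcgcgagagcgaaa
Rpl35 (chr2:39005117-39005171, minus strand): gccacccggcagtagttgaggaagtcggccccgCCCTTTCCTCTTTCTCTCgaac
Runs of this kind lay at or beside the annotated start in Rps6, Rps10, Rps21 and Rpl35. With the probe sets used, Rps6 and Rps10 had higher and Rps21 and Rpl35 lower values in the knockout. Rpl37 and Rps28 had no such run in this window. Whether the annotated starts are those used in these livers was not tested. The lack of a run here therefore does not show that a message lacks a TOP tract.

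Over all entries, the annotated start was a C followed by at least 4 further C or T bases in 11 of the 56 genes (19.6%). This held for 813 of all 27025 genes in the table (3.01%). Runs that had begun before the start were counted too. Such a C within 10 bases on either side of the start, also one inside a longer run, was found in 34 of 56 (60.7%), against 33.3% of all genes. The letters CCGGAAG, which the ETS factor GABP can bind, stood on either strand in the 300 bases from 250 before to 50 after the start in 25 of 56 genes (44.6%), against 9.93% of all genes. The letters AAGATGG, part of the sequence that YY1 can bind, were in 9 of 56 (16.1%), against 7.28%. A match of letters is a description and not a bound site, and all these counts rest on the annotated starts.

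Ribosomal protein messages as a group stood at nearly the same level in both genotypes. Of the 69 genes tested 0 passed limma's test at an adjusted p under 0.05, where 0.0401% of all 12466 genes passed, and the smallest adjusted p of a ribosomal protein gene was 0.348. At an unadjusted p under 0.05 there were 4 (5.8%), against a background of 9.55% of all genes. These 4, Rplp1, Rpl22l1, Rpl37 and Rpl36a, all had higher values in the knockout and all belong to the large subunit. The background for higher values at that level was 7.36%, and for lower values, where the ribosomal proteins had 0, it was 2.18%.

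Values were higher in the knockout for 45 genes and lower for 24. The share of 65.2% lay close to the 63.4% of all genes that were higher. The median log2 change was 0.03 over the ribosomal protein genes and 0.045 over all genes tested. With probe sets free of the array maker's marks for several transcripts or other matching sequences, which left 28 ribosomal protein genes, these medians were 0.083 and 0.045, so the order of the medians turned. Single changes ran from -0.15 in Rps20 to 0.32 in Rpl22l1.

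The wild-type and knockout arrays did not overlap in 11 genes (15.9%), against 15.6% of all genes. Of these 9 were higher in the knockout, where the background was 11.7%, and 2 were lower, where it was 3.92%. The higher ones were Rpl22l1, Rplp1, Rpl37, Rpl36a, Rpl26, Rps16, Rps6, Rps15 and Rps7, and the lower ones Rps20 and Rpl23a.

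**Figure D1:**
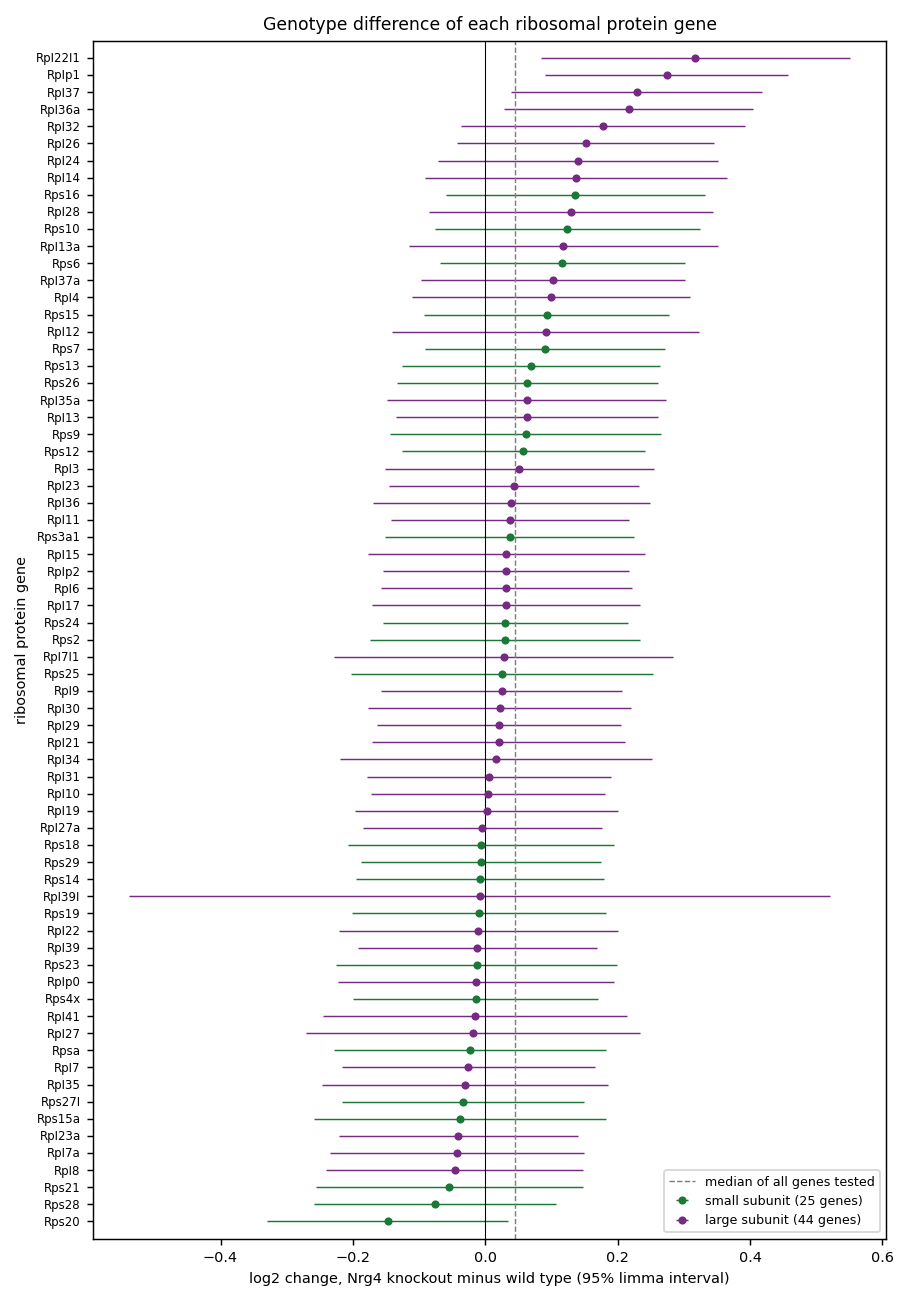
Log2 change (knockout minus wild type, 3 pools each) of the 69 ribosomal protein genes tested, one per row, with 95% limma intervals as bars and the median of all 12466 genes as a dashed line. The points run from -0.15 for Rps20 to 0.32 for Rpl22l1, and the 4 topmost bars alone lie wholly above 0.

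Changes in the group were small in size with the probe sets used. The change lay between -0.1 and 0.1 in 54 of the 69 (78.3%), against 51.7% of all genes and 62.0% of the 1313 other genes whose mean log2 value was 8 or more. It lay between -0.2 and 0.2 in 65 (94.2%), against 81.3% of all genes and 89.0% of those 1313. The median size of a change, regardless of sign, was 0.038 in ribosomal protein genes, 0.096 in all genes and 0.076 in the 1313 other bright genes. Those 1313 were not matched in level. Their array means were 9.16 to 9.23, below the 9.68 to 9.77 of the ribosomal protein genes. With unmarked probe sets, which left 28 ribosomal protein genes, the median log2 change given above exceeded that 0.076. Sizes were not compared between the gene groups with those probe sets.

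The spread between pools was small as well. The median standard deviation within a genotype was 0.068 for the ribosomal protein genes and 0.132 for all genes. It was 0.083 for the other genes with a mean of 8 or more, which were not matched in level. The 95% limma intervals reached 0.197 to either side of the change in the median gene. They lay within 0.3 of 0 in 51 of 69 genes and within 0.5 in 67, and the bounds of all 69 lay between -0.54 and 0.55. A change of 1 on the log2 scale thus lay outside the interval of every ribosomal protein gene tested, while a change of 0.2 lay outside it on both sides in 7. Rps15a, Rpl39l and Rpl14 had mean readings of 2.70, 2.97 and 3.26, near the dim limit of 2.66. Their intervals bound the reading and not a change of the message.

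Averaged over its 69 genes, the group stood 0.02 above, 0.05 below and 0.04 below its overall mean in wild-type replicates 1, 2 and 3 on the log2 scale, and 0.00, 0.01 and 0.05 above it in knockout replicates 1, 2 and 3. The genotypes overlapped, since wild-type replicate 1 lay above knockout replicates 1 and 2. The same average over all 12466 genes was -0.00, -0.03 and -0.04 in wild type and -0.01, 0.03 and 0.05 in the knockout. Because RMA brings all arrays to 1 distribution, a shift that took in most genes would be reduced in these values.

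The rRNA to which the small subunit proteins bind was set beside them through the array's 3 control probe sets for 18S rRNA, which read its 5', middle and 3' parts. All 3 fell in the knockout. This difference was known when they were chosen, so their p-values describe it and are no independent support for it. The fit that gave these p-values covered every probe set, of which 0.0421% passed.

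At the 5' end wild type read 8.12, 8.80 and 8.69 and the knockout 6.06, 6.71 and 5.61, a fall of 2.41 (SE 0.26, limma adjusted p = 0.0262), or 5.31-fold lower. The middle probe set fell by 1.77 (SE 0.19, limma adjusted p = 0.0262), 3.42-fold, from 8.03 ± 0.11 to 6.26 ± 0.45 (SD, n = 3 pools). The 3' probe set fell by 0.84 (SE 0.10, limma adjusted p = 0.0446), 1.79-fold, from 7.61 ± 0.15 to 6.77 ± 0.11 (SD, n = 3 pools). In none of the 3 did the genotypes overlap.

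The fitted falls were unequal along the molecule. The 5' minus the 3' reading was 0.67, 1.15 and 0.95 in wild type and -0.83, -0.03 and -1.06 in the knockout, so each wild-type pool lay above each knockout pool in this difference, which was not tested by itself. The same difference averaged over the Actb and Gapdh control messages did not split the genotypes, at -0.95, -0.78 and -0.96 in wild type and -1.31, -0.70 and -0.65 in the knockout. The other 101 control probe sets had changes of -0.28 to 0.35 and 0 passed limma's test (smallest adjusted p = 0.333, and 1 at an unadjusted p under 0.05).

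Each of these calls was lost with some array left out. The 3' call was lost without wild-type replicate 1, 2 or 3 or knockout replicate 2 or 3 (adjusted p of 0.0774 to 0.239). The middle call was lost without wild-type replicate 1, 2 or 3 (0.107 to 0.128), and the 5' call without wild-type replicate 2 or 3 or knockout replicate 1 or 3 (0.0505 to 0.128). The 3' call held without knockout replicate 1, the middle call without any single knockout array, and the 5' call without wild-type replicate 1 or knockout replicate 2. The changes themselves stayed between -2.70 and -2.15 at the 5' end, -1.94 and -1.52 in the middle and -0.92 and -0.78 at the 3' end. The labelling kit primes on the poly(A) tails of messages, and 18S rRNA is not a message of that kind. Whether the pools differed in the amount of rRNA was not tested.

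**Figure D2:**
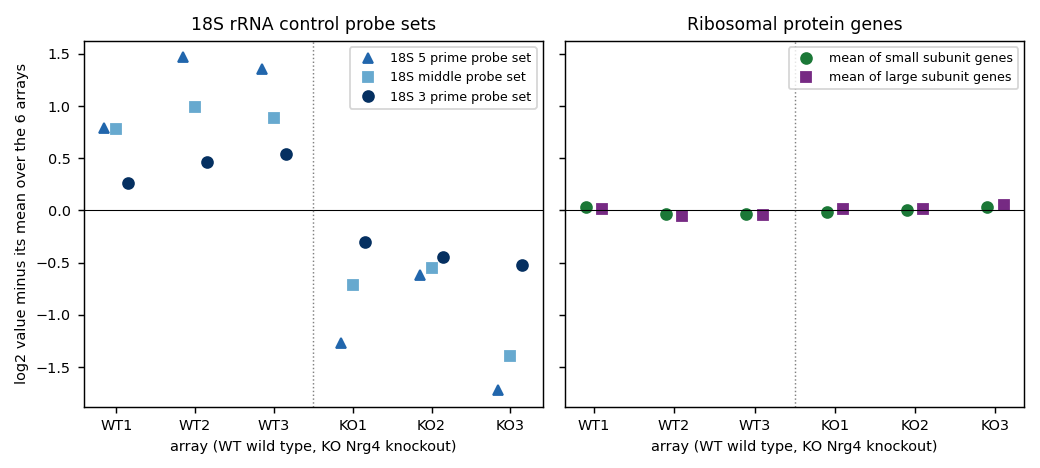
Deviation of each array from its 6-array mean on the log2 scale, at left for the 3 control probe sets of 18S rRNA and at right for the mean of the 25 small and 44 large subunit genes. All 18S points lie above 0 in wild type and below 0 in the knockout, while the subunit means lie between -0.06 and 0.06 with the genotypes overlapping.

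Set on the same scale, the subunit means overlapped between the genotypes where 18S, chosen with its difference known, did not. The 25 small subunit genes averaged 0.04, -0.04 and -0.03 in wild type and -0.01, 0.01 and 0.04 in the knockout. The 44 large subunit genes averaged 0.02, -0.06 and -0.05 against 0.01, 0.01 and 0.06.

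The large subunit had higher values in 32 of 44 genes tested (72.7%), beside 63.4% of all genes, with a median log2 change of 0.03 and a range of -0.05 to 0.32. The small subunit had higher values in 13 of 25 and lower values in 12, with a median of 0.03 and a range of -0.15 to 0.14. Whether the subunits differ from each other was not tested.

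The P stalk is the flexible arm of the large subunit that recruits translation factors. Rplp1, one of its acidic proteins, read 10.65, 10.57 and 10.64 in wild type and 10.90, 10.85 and 10.92 in the knockout. The pools of each genotype lay close together and the genotypes did not overlap. The log2 change was 0.27 (95% interval 0.09 to 0.46, SE 0.08, unadjusted p = 0.0084, limma adjusted p = 0.348), or 1.21-fold. Rplp1 lay within 10 Mb of Nrg4 on the same chromosome, and its change was not tested apart from that place.

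Its partner Rplp2, with which Rplp1 forms a dimer, read 10.28, 10.19 and 10.22 in wild type and 10.23, 10.25 and 10.31 in the knockout, a change of 0.03 (limma adjusted p = 0.927). Rplp0, the base on which the dimers sit, read 10.16, 10.18 and 10.36 against 10.16, 10.23 and 10.27, a change of -0.01 (0.978). In both the genotypes overlapped. Rpl12, at the foot of the stalk, read 8.62, 8.63 and 8.71 against 8.57, 8.80 and 8.87, a change of 0.09 with overlap (0.814). The separation of Rplp1 was therefore not seen in the other genes of the stalk, though the difference between them was not tested.

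Rpl22l1 encodes a protein close to Rpl22 that can take its place in the large subunit. It had the largest change of the group, reading 8.65, 8.69 and 8.56 in wild type and 8.78, 9.08 and 8.997 in the knockout. The log2 change was 0.32 (95% interval 0.08 to 0.55, SE 0.10, limma adjusted p = 0.386), 1.25-fold, and the lowest knockout pool lay just above the highest wild-type pool. Rpl22 itself read 9.01, 8.87 and 8.85 against 8.79, 8.94 and 8.96, a change of -0.01 (95% interval -0.22 to 0.20, limma adjusted p = 0.981) with overlap, and a second probe set of it gave 0.13. A brighter probe set outside the group, which names both Rpl22 and a Riken gene, gave -0.10 without overlap. The array thus gave no settled direction for Rpl22.

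Rpl37, a zinc-binding protein of the large subunit, read 10.20, 10.19 and 10.08 in wild type and 10.35, 10.37 and 10.43 in the knockout, without overlap. Its change was 0.23 (95% interval 0.04 to 0.42, limma adjusted p = 0.445). Another bright Rpl37 probe set went the other way, reading 10.42, 10.32 and 10.24 against 10.20, 10.20 and 10.04, also without overlap and with a change of -0.18 (unadjusted p = 0.0804). The 2 dimmer ones gave -0.03 and -0.00, and the mean of all 4 gave a change of 0.003. The array thus gave no settled direction for Rpl37.

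Rpl36a, which lies by the exit site for spent tRNA, read 9.46, 9.35 and 9.39 in wild type and 9.61, 9.58 and 9.67 in the knockout. The genotypes did not overlap, and the change was 0.22 (95% interval 0.03 to 0.40, limma adjusted p = 0.467). It was measured by 1 probe set.

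**Figure D3:**
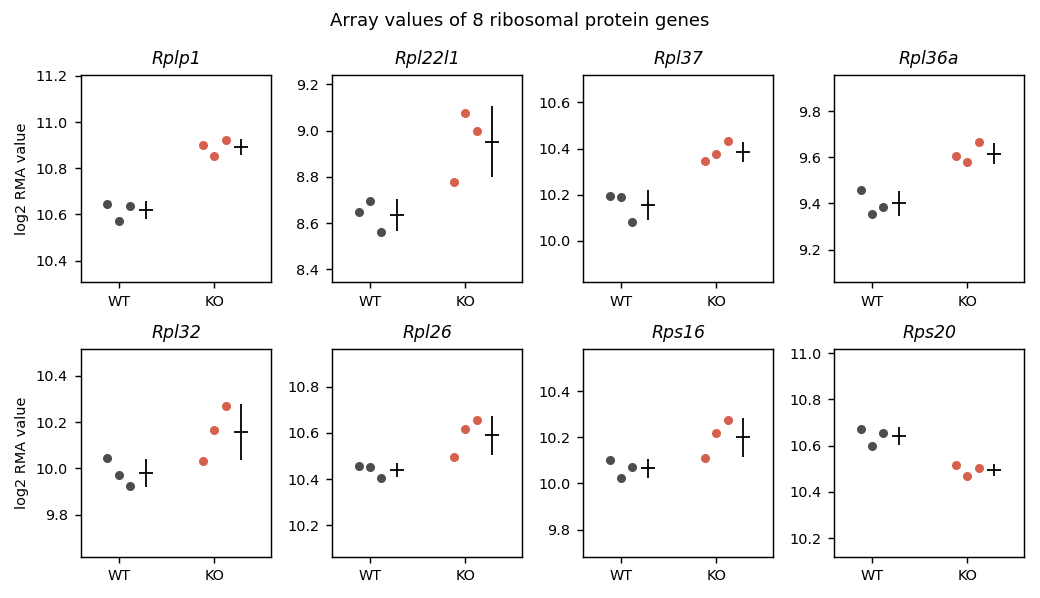
Log2 RMA values of 8 ribosomal protein genes in the 3 wild-type (WT) and 3 knockout (KO) pools, one point per pool, with the mean and standard deviation beside them and the same height of 0.9 log2 units in each panel. With the probe sets used, Rps20 is lower in the knockout, the other 7 are higher, and Rpl32 alone has overlapping genotypes.

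Further large subunit genes with higher values had smaller changes. Rpl32 read 10.04, 9.97 and 9.92 against 10.03, 10.17 and 10.27, a change of 0.18 (limma adjusted p = 0.59) with overlap through knockout replicate 1. Rpl24, whose protein reaches across to the small subunit, read 9.99, 9.90 and 9.75 against 10.07, 9.98 and 10.02 and changed by 0.14 (0.665). In both genes 1 pool closed the gap between the genotypes. A second, faint probe set of Rpl24 gave -0.10.

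A set of 8 genes encodes proteins of the wall and rim of the tunnel through which the new peptide leaves. All 8 were measured, 5 were higher and 3 lower, and their median change was 0.004. Rpl26, at the rim, read 10.46, 10.45 and 10.40 in wild type and 10.50, 10.62 and 10.66 in the knockout, a change of 0.15 without overlap (limma adjusted p = 0.599). Rpl23a, the docking protein for the signal recognition particle, read 10.55, 10.53 and 10.61 against 10.53, 10.52 and 10.52. Its genotypes did not overlap either, by a very narrow gap, and the change was -0.04 (0.901).

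Rpl35, beside Rpl23a at the rim, had a change of -0.03 (limma adjusted p = 0.939). Rpl39, in the tunnel wall, read 10.89, 10.87 and 10.89 in wild type and 10.89, 10.83 and 10.90 in the knockout, a change of -0.01 (0.978). Rpl4, whose long loop reaches into the tunnel, lay within 10 Mb of Nrg4 as Rplp1 did. It read 10.31, 10.47 and 10.52 against 10.49, 10.51 and 10.59, a change of 0.10 with overlap (0.77). Rps25 and Rps27l lay 10 to 20 Mb from Nrg4, with changes of 0.03 and -0.03, and Rpl14, Rpl29 and Rpsa lay farther away on that chromosome. The probe sets used for Rps25 and Rps27l carry the array maker's mark for other matching sequences. The other 63 genes lay on other chromosomes.

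Rpl11, which joins the ribosome with Rpl5 and 5S rRNA and can also bind the p53 regulator Mdm2, read 10.08, 10.03 and 10.01 in wild type and 10.07, 10.07 and 10.08 in the knockout. Its change was 0.04 (limma adjusted p = 0.908) with overlap. Rpl5 had no probe set with a single symbol.

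The lower side of the large subunit held only small changes. Rpl8, close to the peptidyl transferase centre, read 9.58, 9.45 and 9.48 in wild type and 9.39, 9.48 and 9.49 in the knockout, a change of -0.05 (limma adjusted p = 0.894). Rpl7a changed by -0.04 (0.904). Rpl7 read 10.05, 10.05 and 10.11 against 10.07, 9.96 and 10.10, a change of -0.03 (0.945). The genotypes overlapped in each.

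With the probe sets used, Rps20 had the largest small subunit change in either direction. It read 10.67, 10.60 and 10.66 in wild type and 10.52, 10.47 and 10.50 in the knockout, with no overlap. The change was -0.15 (95% interval -0.33 to 0.03, SE 0.08, unadjusted p = 0.0988, limma adjusted p = 0.593). A second bright probe set of Rps20 read 9.70, 9.81 and 9.85 against 9.64, 9.76 and 9.53 and gave -0.14 with overlap, and a dimmer one gave 0.17. The probe set used carries the array maker's mark for other matching sequences, and the one at 0.17 is unmarked. The array thus gave no settled direction for Rps20.

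Rps20 belongs to the head of the small subunit, which turns during translocation. Of 14 head genes listed, 10 were measured, 5 higher and 5 lower in the knockout, and their median change was 0.01. Rps16 read 10.10, 10.02 and 10.07 in wild type and 10.11, 10.22 and 10.27 in the knockout, a change of 0.14 (limma adjusted p = 0.649) without overlap. Rps10, near the mRNA entry, read 10.09, 10.07 and 10.04 against 10.23, 10.08 and 10.26, a change of 0.12 (0.684). The changes of its 3 probe sets ran from -0.02 to 0.22. Rps15, whose tail reaches toward the decoding site, changed by 0.09 (0.751) without overlap.

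Rps28, at the mRNA exit, was on the lower side, with 10.71, 10.64 and 10.70 in wild type and 10.57, 10.61 and 10.64 in the knockout. The change was -0.08 (limma adjusted p = 0.804), and wild-type replicate 2 overlapped with the knockout. With the probe sets used, the head genes thus held both the lowest log2 change of the small subunit, in Rps20, and the highest, in Rps16.

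Rps6, the substrate of S6 kinase downstream of mTORC1, read 11.14, 11.08 and 11.03 in wild type and 11.18, 11.20 and 11.22 in the knockout. The genotypes did not overlap, and the change was 0.12 (95% interval -0.07 to 0.30, limma adjusted p = 0.678). The array reads its message and not its phosphorylation. Rps7 changed by 0.09 (0.754), also without overlap.

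Rps21 read 10.31, 10.16 and 10.20 against 10.09, 10.22 and 10.21 on its brightest probe set, a change of -0.05 with overlap (limma adjusted p = 0.875). Rps15a sat just above the dim limit, reading 2.82, 2.67 and 2.67 in wild type and 2.81, 2.58 and 2.65 in the knockout, a change of -0.04 (0.927). This reading says little of the Rps15a message, since most of its values lie close to 2.66, the limit itself.

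Loss of 1 copy of certain ribosomal protein genes causes Diamond-Blackfan anaemia in humans. Of 20 such genes listed 16 were measured, 9 higher and 7 lower in the knockout, and 0 passed. With the probe sets used, their median change was 0.02 and their range -0.15 to 0.15, set by Rps20 and Rpl26.

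Several members have a second gene copy with a protein close to the first, and 5 of 7 such copies were measured. Rpl22l1 was described above. Rps27l, a p53-responsive copy of Rps27, read 10.37, 10.33 and 10.29 in wild type and 10.33, 10.29 and 10.26 in the knockout, a change of -0.03 (limma adjusted p = 0.922). Its probe set carries the array maker's mark for other matching sequences, and whether it also reads Rps27 was not tested.

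Rpl7l1 read 6.45, 6.40 and 6.14 against 6.25, 6.49 and 6.34, a change of 0.03 (limma adjusted p = 0.957). Rpl39l, known from testis, read 3.33, 2.53 and 3.07 against 3.35, 2.59 and 2.97. Its change was -0.01 with the widest interval of the group, -0.54 to 0.52 (0.992). In these copies the genotypes overlapped.

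Of the parent genes, Rpl3 read 10.01, 10.09 and 10.19 in wild type and 10.07, 10.17 and 10.20 in the knockout, a change of 0.05 (limma adjusted p = 0.886). Rpl10, which completes the large subunit late in its assembly, had the smallest spread of the group with the probe sets used. Its within-genotype SD was 0.01 and its change 0.004 (0.99). Another bright Rpl10 probe set had SDs of 0.058 in wild type and 0.075 in the knockout and a change of 0.04. Rps4x changed by -0.01 (0.973). Neither the listed parents nor copies thus had a called change, and Rpl22l1 was the one among them whose genotypes did not overlap. The parent Rps27 was not measured, and Rpl36al, a copy of Rpl36a, lay outside the list. Rpl36al changed by 0.18 and Rpl36a by 0.22, both without overlap. The Rpl36al probe set carries the array maker's mark for other matching sequences, and whether it also reads Rpl36a was not tested.

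Many of these genes have processed pseudogenes and near-identical copies, so a probe set can read more than its own gene. Of the 70 probe sets used, 23 carry the array maker's mark for probes that match other sequences as well, 32 the mark for several transcripts of 1 gene, and 15 neither. Of the 133 probe sets 125 were above the dim limit, and 0 of these passed limma's test over all probe sets (smallest adjusted p = 0.394). At an unadjusted p under 0.05 there were 9, 7 higher and 2 lower, against a background of 11.0% of the probe sets above the limit.

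Among the 32 genes with several probe sets above the limit, 16 had all changes of 1 sign and 16 had both signs. The median gap between the highest and lowest change of a gene was 0.0997, more than the 0.038 that was the median size of a change, and the widest was 0.42 in Rps24. The 3 bright Rps24 probe sets gave 0.03, 0.13 and 0.00. A faint one read 3.47, 3.57 and 3.43 in wild type and 3.61, 3.91 and 4.23 in the knockout, a change of 0.42 (limma adjusted p = 0.482).

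Rps21 had changes of -0.05 and -0.04 on its 2 brightest probe sets. On the other two they were -0.27, with readings of 8.91, 8.84 and 8.89 against 8.57, 8.66 and 8.60, and -0.24, with 6.30, 6.23 and 6.19 against 6.01, 5.95 and 6.05. Both of these were without overlap and had limma adjusted p-values of 0.403 and 0.493. All 4 Rps21 probe sets were thus on the lower side, by amounts that differ.

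Rpl27, a further gene of the anaemia list, gave -0.02 on the probe set used. Another of its probe sets read 8.72, 8.64 and 8.61 in wild type and 8.83, 8.83 and 8.92 in the knockout, a change of 0.20 (limma adjusted p = 0.587), and the remaining one gave -0.05 with overlap. Rps12, of the head, gave 0.06 on the probe set used and 0.18 on another, which read 8.22, 8.24 and 8.32 against 8.44, 8.44 and 8.46 (0.609). In both genes 1 probe set separated the genotypes, and neither the one used nor, in Rpl27, the remaining one did.

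**Figure D4:**
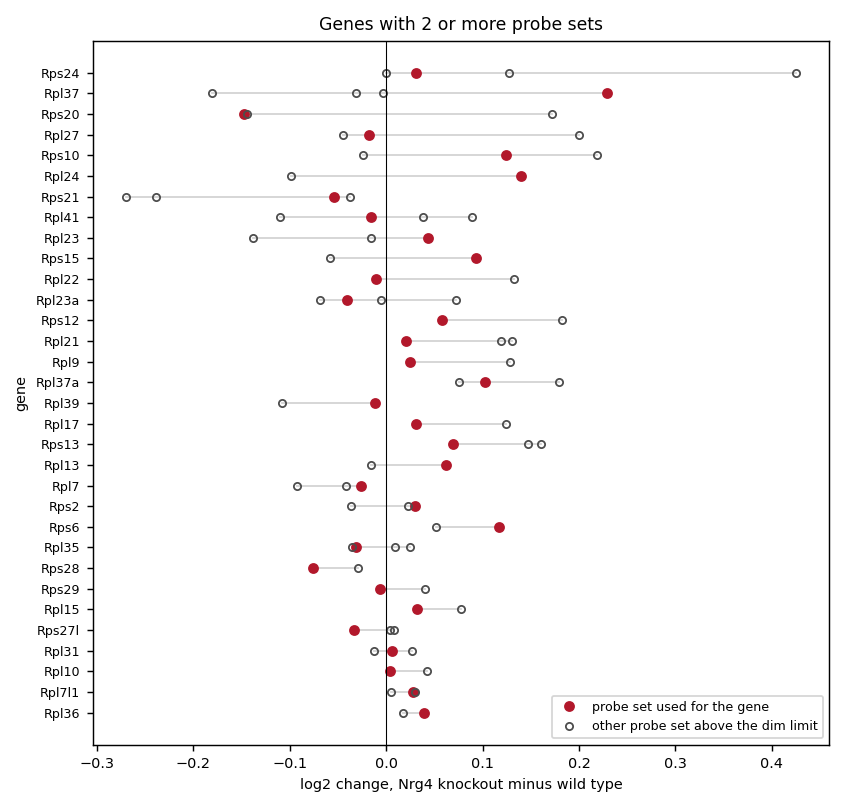
Log2 change (knockout minus wild type) of every probe set above the dim limit for the 32 ribosomal protein genes with several, ordered by the gap between a gene's highest and lowest change. Filled points are the probe sets used for the genes and open points the others, and 16 genes have points on both sides of 0.

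Genes that work with the ribosome were read from lists for the steps of its production and use, and 0 of their members passed the adjusted test. RNA polymerase I transcribes rRNA. Of its 16 listed genes 13 were tested, 9 higher and 4 lower in the knockout with a median of 0.03. Polr1d, a subunit it shares with RNA polymerase III, had a change of 0.27 (limma adjusted p = 0.483), and Polr1e of 0.20 (0.597).

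Processing of rRNA and assembly of subunits was read from 33 of 36 listed genes, of which 27 were higher and 6 lower, with a median of 0.09 beside 0.045 for all genes. At an unadjusted p under 0.05, 3 were higher and 0 lower, a share of 9.09% beside 9.55% of all genes. Both genes with the smallest p belong to the H/ACA particles that guide pseudouridylation of rRNA. Nhp2 read 6.69, 6.67 and 6.42 in wild type and 6.87, 6.997 and 6.83 in the knockout, a change of 0.31 without overlap (limma adjusted p = 0.415). Nop10 read 9.31, 9.23 and 9.16 against 9.54, 9.41 and 9.47, a change of 0.24 without overlap (0.445).

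Translation factors and other genes whose messages carry the TOP tract or that work beside it had 16 of 20 listed members tested, 11 higher and 5 lower, with a median of 0.05. Both genes with the smallest p were on the lower side. Eef1d and Eef1b2, which recharge elongation factor 1 with GTP, had changes of -0.12 (limma adjusted p = 0.697) and -0.10 (0.728).

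Of the genes that link mTORC1, S6 kinases and p53 to the ribosome, 11 of 19 were tested, 9 higher and 2 lower, with a median of 0.09. Cdkn1a, the p53 target that encodes the cell cycle inhibitor p21, read 3.76, 4.17 and 4.04 in wild type and 4.42, 4.75 and 4.38 in the knockout. Its change was 0.53 without overlap (limma adjusted p = 0.309). Rps6ka3, a kinase of the RSK family, had a change of 0.31 (0.494).

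Mitochondrial ribosomal proteins, which serve a separate ribosome, were higher in 61 of 73 genes and lower in 12, with a median of 0.09. The genotypes did not overlap in 14 of them, all higher, where the background for higher genes was 11.7%. Mrps18b read 7.12, 7.11 and 7.11 in wild type and 7.24, 7.48 and 7.41 in the knockout, a change of 0.27 (limma adjusted p = 0.421). Mrps30 changed by 0.24 (0.473).

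**Figure D5:**
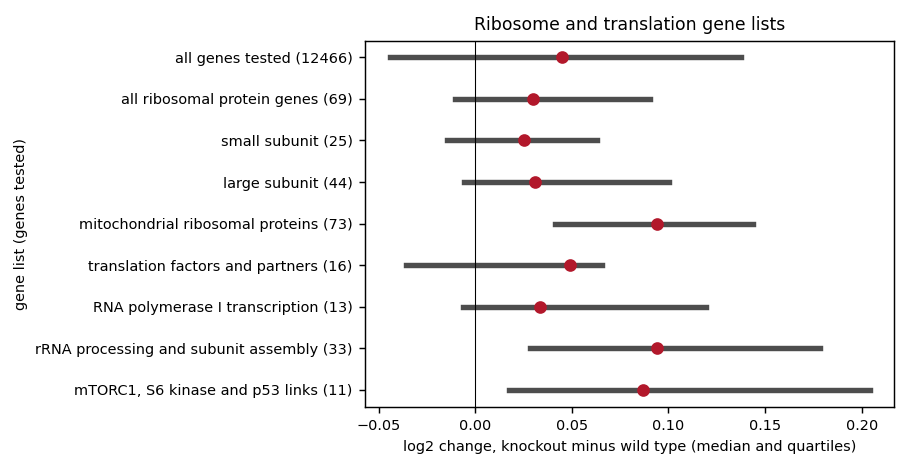
Median log2 change (points) and lower to upper quartile (bars) of the ribosome and translation gene lists, knockout minus wild type, with the number of genes tested in each. With the probe sets used, the medians of all ribosomal protein genes and of both subunits lie below the 0.045 of all genes tested (with unmarked probe sets the first is 0.083), and those of the mitochondrial and rRNA processing lists lie at 0.09.

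Most markers of other liver cells had higher values in the knockout, beside 63.4% of all genes, and none passed the adjusted test. The 17 macrophage and Kupffer cell markers tested of 18 were all higher in the knockout, with a median change of 0.33, mean levels of 6.03 to 6.19 in wild type and 6.07 to 6.77 in the knockout, and Itgam dim. Knockout replicate 1, at 6.07, lay within the wild-type range. Endothelial markers were higher in 11 of 12 (median 0.28, levels of 5.25 to 5.53 against 5.58 to 5.85), and stellate cell and matrix markers in 10 of 11 (median 0.18, levels of 5.16 to 5.28 against 5.40 to 5.58), with Col1a2 dim.

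Of the other marker lists, T and NK cells had 5 higher and 2 lower (median 0.10), with Cd2, Cd3g, Gzma and Klrd1 dim. B cells had 3 higher and 2 lower (0.08) with Ighm dim, neutrophils 2 higher and 3 lower (-0.07) with Mpo dim, and red blood cells 2 of each (0.15). For cholangiocytes 2 markers were tested, Sox9 and Epcam, both higher (median 0.20), and Krt19, Krt7 and Cftr were dim. Hepatocyte markers had 6 higher and 7 lower, with a median of -0.002 and Pck1 dim. The part of these cell types in the ribosomal protein values was not tested.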

How the data were processed

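Total RNA (250 ng) of each liver pool was labelled with a 3' kit and hybridised to an Affymetrix MG-430 PM array, per the labels' protocols. The deposited table holds log2 values, made with affy and RMA per the submitters' processing notes, which also name limma. The sources used here give neither versions nor a genome build. The 6 arrays were grouped by the genotype in the labels.

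Of 45141 probe sets 28898 had 1 gene symbol, 551 several and 15588 none here, and 104 were controls. From the deposited log2 values, genes whose probe set mean lay under the 40th percentile (2.66) were left out as dim. Knockout was set against wild type in limma 3.58.1 (R 4.3.3) by lmFit and eBayes, two-sided, and p-values were adjusted by Benjamini-Hochberg over 12466 genes or, for control and single probe sets, over all probe sets. The script was tested on simulated data. RefSeq tables of GRCm38.p6 gave names, neighbours of Nrg4 and promoters, and all 70 genes matched. Python 3.11.15 and matplotlib 3.10.9 drew the figures.

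The genes and lists were chosen with earlier results of these data known. The text names the 10 ribosomal protein genes with the smallest p in each direction, the stalk, 5S and copy genes, 2 genes of each pathway list, and others chosen after their values were seen. Alternatives changed the normalization, centring, dim limit, variance prior, array weights, probe set choice, replicate block, a 5' to 3' covariate, the threshold and a least change of 1.5-fold, and left out each array in turn. The same replicate number did not pair the pools, since the correlations of their deviations were -0.15, 0.03 and -0.01.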

Additional observations from a re-analysis of the deposited data

How the results depend on the processing

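No ribosomal protein gene was called under any alternative run for that count; with limma's variance trend the smallest adjusted p of a ribosomal protein gene was 0.0759 and 9 had an unadjusted p under 0.05, and elsewhere it reached 0.805. Their median log2 change of 0.03 went to 0.083 with probe sets free of the s, x or a mark (28 genes tested) and lay between 0.02 and 0.056 with 1 array left out. The number of all genes called, 5 as reported, was 12 with the 5' to 3' covariate, 30 at an adjusted p under 0.10, 50 with array weights, 3 at the 60th percentile, 3 with the mean of all probe sets, 15 with probe sets free of those marks, 8 with quantile normalization again, 29 with the variance trend and 1 to 17 with 1 array left out, the 17 without knockout replicate 1. With the replicate number as a block 2 genes were called, the ribosomal protein median stayed at 0.03, and the 3' 18S change of -0.84 was no longer called (adjusted p = 0.104). With 1 array left out the 18S changes lay between -0.92 and -0.78 (3'), -1.94 and -1.52 (middle) and -2.70 and -2.15 (5'). Quantile normalization again was not run for 18S, whose control probe sets stand outside it.

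Over single named genes and alternatives, 480 values kept the sign and 26 turned it, all in genes with a change near 0 but for Rps20, which stood at 0.17 on its unmarked probe set. Rpl10 stood at -0.0091 after centring, Rpl22 at 0.031 with array weights and 0.061 by the mean of its probe sets, Rpl39 at 0.0023 and Rpl7l1 at -0.0084 after quantile normalization, and Rpl39l at 0.055 and Rplp0 at 0.027 with array weights. With 1 array left out Rpl10 ranged from -0.0020 to 0.0093, Rpl22 from -0.043 to 0.043, Rpl35 from -0.094 to 0.035, Rpl39 from -0.026 to 0.011, Rpl39l from -0.23 to 0.18, Rpl7 from -0.054 to 0.014, Rpl7a from -0.074 to 0.0014, Rpl7l1 from -0.067 to 0.088, Rplp0 from -0.051 to 0.049, Rps15a from -0.10 to 0.013 and Rps4x from -0.041 to 0.013. The causes were not tested. The directions of Rplp1, Rpl22l1 and Rpl36a stayed under every alternative run for them. The change of Rpl37 came down from 0.23 to 0.0034 by the mean of its 4 probe sets.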

Other observations

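Some probe sets of ribosomal protein genes lay outside the group because the annotation gives them several symbols or another form of symbol, and 0 of 20 passed limma's test. Rpl36al, an expressed copy of Rpl36a, read 9.90, 9.82 and 9.85 in wild type and 10.07, 10.05 and 9.999 in the knockout, a change of 0.18 without overlap (limma adjusted p = 0.609), on the same side as Rpl36a. This probe set carries the mark for other matching sequences, so it may not be a reading apart from Rpl36a. The 3 probe sets that name both Rpl5 and Dipk1a gave -0.03, -0.20 and -0.33. The 4 that name both Rpl14 and its pseudogene Rpl14-ps1 gave -0.14, -0.12, -0.11 and -0.08, while the single-symbol probe set of Rpl14, with readings of 3.33, 3.09 and 3.14 against 3.35, 3.41 and 3.22, gave 0.14. A probe set that names Rps15a-ps6 read 10.18, 10.03 and 10.06 against 9.999, 10.22 and 10.15, a change of 0.03 with overlap. One that names Rpl22 and a Riken gene read 10.24, 10.17 and 10.16 against 10.08, 10.12 and 10.07, a change of -0.10 without overlap.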
